A study of Mus musculus with 36 samples.

Results

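Apoptosis and p53 family genes were examined in fully grown mouse oocytes at the germinal vesicle (GV) stage. The set holds 28 genes, named by symbol, of the 21968 genes of the deposited count table: the p53 family, 4 of its target and brake genes, and the BCL-2 family, apoptosome and caspase genes of the mitochondrial and death receptor routes. All 28 were found in the table through their Ensembl IDs. The data are 36 single-oocyte RNA-seq libraries, 18 labelled Drp1_KO from 4 mice (a to d) and 18 labelled Drp1_WT from 5 mice (1 to 5). Drp1, the protein of Dnm1l, is a GTPase of the dynamin kind that cuts mitochondria in pieces, and the series' title places its depletion in the oocyte. The labels name no strain, age, Cre driver or deleted exon, and no treatment of either group. Mouse d and mouse 5 supplied the tubes numbered 27 to 30 and the other mice those numbered 1 to 15. The mouse was the replicate, since oocytes of a mouse are not independent.

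Totals ran from 3178509 to 7406895 counts per oocyte. Oocyte markers summed to 23228 to 40122 CPM (read counts scaled to 1e+06 per library) in 35 of the 36 oocytes and granulosa markers to 83.9 to 162 CPM. KO tube 10 of mouse b stood apart, with 4431 CPM of oocyte markers, 11350 genes detected against 13199 to 14659 in the others, and 561 CPM of stroma, vessel, epithelium and immune markers against 29.6 to 75.1 CPM. Dnm1l did not separate the labels (207 ± 15.8 CPM in Drp1_KO mice and 239 ± 69.2 CPM in Drp1_WT mice, SD, n = 4 and 5, log2 fold change -0.21, SE 0.19, adjusted p = 0.706 by edgeR). WT tubes 11 to 15 held 116 to 156 CPM of it, below the other 13 libraries labelled Drp1_WT (234 to 322 CPM) and mostly below the libraries labelled Drp1_KO (144 to 274 CPM). The targeted gene is therefore at odds with the Drp1_WT label of these 5 libraries, and whether that label is right was not tested. Counts over the whole gene may include exons outside the deletion, which bears on its level under Drp1_KO. Directions below follow the labels as given.

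In the mitochondrial route to apoptosis, BH3-only proteins sense damage and bind the pro-survival BCL-2 proteins, which otherwise hold the pore-forming proteins BAX and BAK in check. Once pores open the outer mitochondrial membrane, cytochrome c assembles APAF1 and caspase-9 into the apoptosome, which activates the executioner caspases, while SMAC/DIABLO relieves the inhibitor XIAP. In the mouse ovary, p63 is known as the guardian of oocyte quality: DNA damage activates it through CHK2 and casein kinase 1, and it then induces the BH3-only genes Bbc3 (PUMA) and Pmaip1 (NOXA). Drp1 is known to act at the same outer membrane, where mitochondria divide.

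Promoters of 3 genes known as p53 targets are shown because their transcripts differ widely in level here, from a mean of 48.7 TPM (counts per exon length, scaled to 1e+06 per mouse) for Mdm2 and 27.8 TPM for Bax to 0.0292 TPM for Phlda3. Each is the 250 bases before the RefSeq start site (GRCm38.p6), 5′ to 3′ on the gene's own strand: chr10:117710759-117711008 on the minus strand for Mdm2, chr7:45466899-45467148 on the minus strand for Bax, and chr1:135765835-135766084 on the plus strand for Phlda3. Capitals mark the p53 decamer, the 10-base unit of p53 response elements.
Mdm2: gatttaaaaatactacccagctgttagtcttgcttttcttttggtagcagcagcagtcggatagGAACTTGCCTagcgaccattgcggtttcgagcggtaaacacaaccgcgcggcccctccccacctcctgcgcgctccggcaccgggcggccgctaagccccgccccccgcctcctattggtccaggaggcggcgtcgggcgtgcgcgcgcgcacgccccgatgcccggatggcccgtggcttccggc
Bax: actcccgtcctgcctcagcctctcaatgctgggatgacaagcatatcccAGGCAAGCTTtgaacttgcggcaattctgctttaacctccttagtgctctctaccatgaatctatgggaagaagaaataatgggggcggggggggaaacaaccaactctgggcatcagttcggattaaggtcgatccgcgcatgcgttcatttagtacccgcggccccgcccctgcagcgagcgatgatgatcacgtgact
Phlda3: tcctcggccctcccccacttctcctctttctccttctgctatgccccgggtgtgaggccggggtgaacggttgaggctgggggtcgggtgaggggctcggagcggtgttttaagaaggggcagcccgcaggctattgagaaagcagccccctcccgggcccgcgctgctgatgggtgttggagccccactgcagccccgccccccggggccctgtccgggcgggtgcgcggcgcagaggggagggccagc
The decamer ends 176 bases before the start of Mdm2 and 191 bases before that of Bax. Phlda3 has none in this window. RefSeq promoters were matched for 24 of the 28 members, in 34 windows, and windows of 5 members held the decamer (Mdm2, Bax, Trp53, Ccng1 and Cdkn1a), a pattern that reads the same on both strands. Of all 32851 mouse promoter windows, 7.13% held it. Mean levels of these 5 members ran from 48.7 TPM for Mdm2 to 1.72 TPM for Cdkn1a. Those of matched members without the decamer ran from 84.7 TPM for Casp8 to 0.0072 TPM for Bak1. TATAAA, on either strand, was found in 2 member windows (Trp53 and Xiap) and in 12.4% of all windows, and CACGTG in 2 (Bax and Bbc3) and in 6.02%. CpG-rich sequence, with over 50% GC and an observed over expected CpG ratio above 0.6, made up 21 of the 34 member windows and 30.8% of all windows. Of the members near 0 in these oocytes, Phlda3 and Bak1 had no window past these bounds, while Bcl2 and all 3 windows of Bbc3 were CpG-rich, and Casp8, the second most abundant member at 84.7 TPM, had none. These matches describe letters in the windows and not binding.

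The pro-survival group was the most abundant, and nearly all of it was Bcl2l10 (ENSMUSG00000032191, chromosome 9, 75347758 to 75351632, plus strand, GRCm38). Bcl2l10, called Diva or Boo in mouse, is a BCL-2 relative known for its expression in the ovary, for which both survival and death activities have been described. Per length it averaged 8118 ± 997 TPM in Drp1_KO mice and 7398 ± 1104 TPM in Drp1_WT mice (SD, n = 4 and 5), and it was the gene of rank 8 among all genes. It made up 99.5% ± 0.147 of the summed TPM of the 5 pro-survival genes in Drp1_KO mice and 99.3% ± 0.127 in Drp1_WT mice. Over all 28 members its share lay between 94.9% and 96.5% in every mouse. The next pro-survival gene, Bcl2l1, which encodes BCL-XL, averaged 35.7 ± 10.1 TPM in Drp1_KO mice and 47.3 ± 14.4 TPM in Drp1_WT mice. Mcl1, a short-lived survival protein that many cells need, averaged 2.58 ± 0.674 TPM in Drp1_KO mice and 2.53 ± 0.469 TPM in Drp1_WT mice. The ratio of Bcl2l1 to Mcl1 was 14.3 ± 5.46 in Drp1_KO mice and 19.8 ± 8.80 in Drp1_WT mice. Bcl2 itself stood at 0.084 TPM over all mice and Bcl2l2, which encodes BCL-W, at 0.129 TPM.

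Of the pore-forming pair, Bax was present and Bak1 was close to absent from the counts. Bax (chromosome 7, 45461697 to 45466898, minus strand) had 15.8, 16, 16.2 and 13.6 CPM in Drp1_KO mice a to d and 17.3, 16.1, 18.8, 16.9 and 14.1 CPM in Drp1_WT mice 1 to 5. Per length that was 25.4 ± 4.03 TPM in Drp1_KO mice and 29.7 ± 4.39 TPM in Drp1_WT mice. Bak1 had 0 counts in the 18 Drp1_KO oocytes, which allows up to 0.0293 CPM, and 1 count in 1 of the 18 Drp1_WT oocytes, in mouse 4. This limit covers counting error only. Transcripts of Bcl2l10 outnumbered those of Bax in each of the 9 mice, 327 ± 66.6 times in Drp1_KO mice and 250 ± 24.9 times in Drp1_WT mice.

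**Figure D1:**
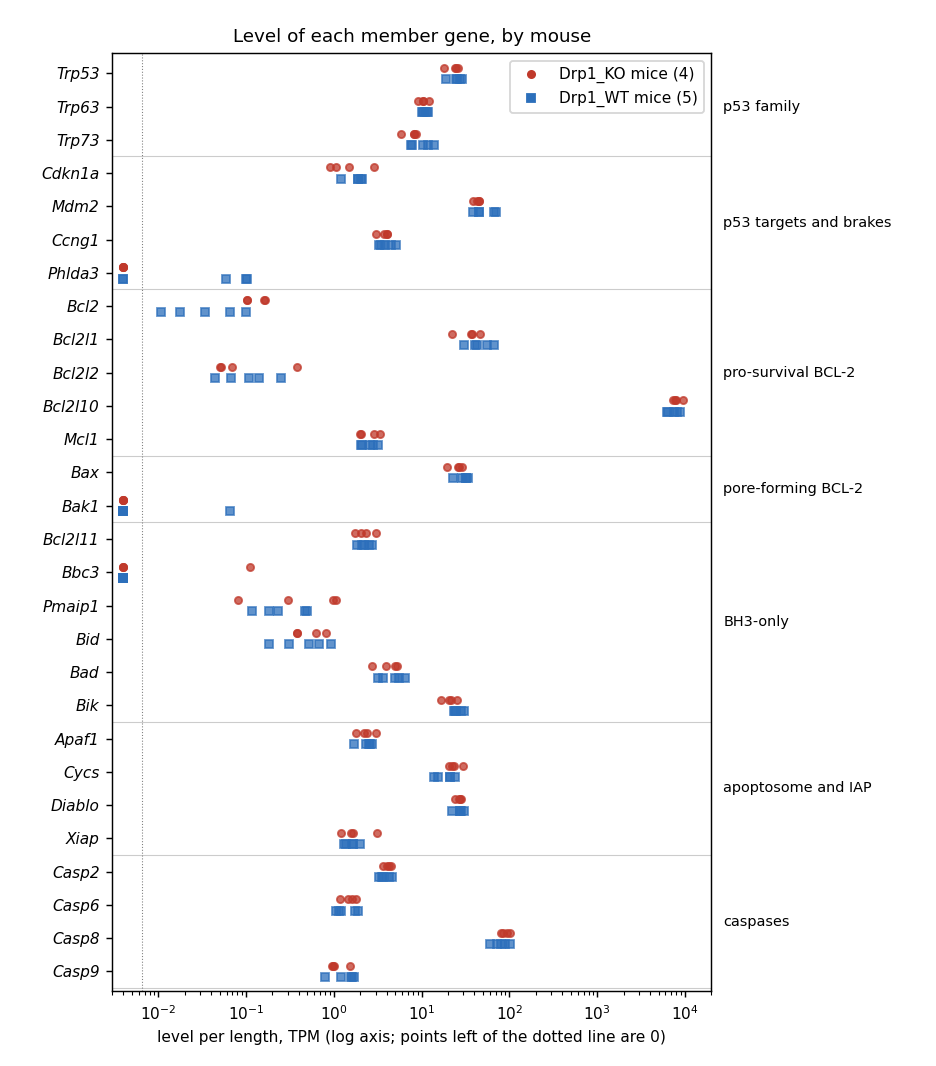
Level per length (TPM, log axis) of the 28 member genes, grouped by role; red circles are the 4 Drp1_KO mice and blue squares the 5 Drp1_WT mice, and points left of the dotted line are 0. Bcl2l10 lies between 6189 and 9571 TPM in every mouse, and Casp8, in the next place by mean, at most at 103 TPM, while Bak1, Bbc3 and Phlda3 are 0 in most mice.

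Among the p53 family, Trp53 gave the most transcripts with Trp63 and Trp73 below it. Trp53 (chromosome 11, 69580359 to 69591873, plus strand) had 36.3, 39.1, 36.9 and 31.8 CPM in Drp1_KO mice a to d and 38.5, 36.9, 35.2, 39.5 and 30 CPM in Drp1_WT mice 1 to 5. Trp63 (chromosome 16, 25683763 to 25892102, plus strand) had 32.9, 40.3, 30.6 and 33.4 CPM in Drp1_KO mice and 30.2, 32.6, 35.9, 32.3 and 33.7 CPM in Drp1_WT mice. Both were present at similar CPM in every mouse, with the labels interleaved. Because the merged exons of Trp63 are longer, its level per length was lower, at 10.5 ± 1.32 TPM in Drp1_KO mice and 11 ± 0.738 TPM in Drp1_WT mice, against 23.1 ± 3.54 TPM in Drp1_KO mice and 25.1 ± 4.01 TPM in Drp1_WT mice for Trp53. Trp53 therefore made up 55.8% ± 1.34 of the family's TPM in Drp1_KO mice and 53.9% ± 3.70 in Drp1_WT mice. Counts per gene do not separate the TAp63 form, the one known from oocytes, from the ΔNp63 form of epithelia. Trp73, whose product is known to guard the spindle in oocytes, averaged 7.72 ± 1.32 TPM in Drp1_KO mice and 10.3 ± 2.68 TPM in Drp1_WT mice, and Trp63 was the higher of these 2 in 7 of 9 mice.

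Mdm2, the ubiquitin ligase that removes p53, dominated the targets and brakes. It averaged 43.1 ± 2.90 TPM in Drp1_KO mice and 53.1 ± 14.6 TPM in Drp1_WT mice, which was 89.1% ± 2.23 of this group's TPM in Drp1_KO mice and 89.7% ± 1.84 in Drp1_WT mice. Its transcripts exceeded those of Trp53 in each mouse, by 1.89 ± 0.209 times in Drp1_KO mice and 2.09 ± 0.308 times in Drp1_WT mice. Cdkn1a, which encodes the cell cycle inhibitor p21 and is a classic p53 target, was low, at 1.40, 4.00, 1.87 and 1.43 CPM in Drp1_KO mice a to d and 2.49, 2.41, 2.40, 2.46 and 1.72 CPM in Drp1_WT mice 1 to 5. Mouse b, the highest, contains tube 10. Ccng1, cyclin G1, averaged 3.71 ± 0.452 TPM in Drp1_KO mice and 4.00 ± 0.754 TPM in Drp1_WT mice. Phlda3, a p53-induced repressor of AKT signalling, had 0 counts in the Drp1_KO oocytes, which allows up to 0.0293 CPM, and 3 counts in 3 of 18 Drp1_WT oocytes.

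Bik led the BH3-only genes, and the p63 targets Bbc3 and Pmaip1 had the lowest means of the 6 over all mice. In Drp1_KO mice alone Pmaip1, at 0.610 ± 0.492 TPM, was above Bid by less than the spread over mice, and in Drp1_WT mice, at 0.299 ± 0.173 TPM, below it. Bik, whose protein resides largely at the endoplasmic reticulum, had 9.99, 15.8, 12.1 and 14.3 CPM in Drp1_KO mice a to d and 12.6, 14.1, 13.6, 16.2 and 17.8 CPM in Drp1_WT mice 1 to 5. It held 73.2% ± 4.39 of the group's TPM in Drp1_KO mice and 76.8% ± 4.62 in Drp1_WT mice. Bad, the BH3-only protein that growth factor signalling keeps phosphorylated, followed with 4.26 ± 1.15 TPM in Drp1_KO mice and 4.76 ± 1.36 TPM in Drp1_WT mice, and Bcl2l11, which encodes BIM, with 2.29 ± 0.552 TPM in Drp1_KO mice and 2.28 ± 0.358 TPM in Drp1_WT mice. Bid, which caspase-8 cleaves to join the 2 routes, averaged 0.552 ± 0.216 TPM in Drp1_KO mice and 0.521 ± 0.295 TPM in Drp1_WT mice. Pmaip1 had 1.00, 1.15, 0.294 and 0.0984 CPM in Drp1_KO mice a to d and 0.111, 0.482, 0.460, 0.210 and 0.195 CPM in Drp1_WT mice 1 to 5, and was counted in 28 of the 36 oocytes. Bbc3 had 2 counts, both in the same oocyte of mouse a, among the 18 Drp1_KO oocytes and 0 counts in the Drp1_WT oocytes, which allows up to 0.0275 CPM.

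Downstream of the mitochondrion, Diablo and Cycs were far above Apaf1 and Xiap. Diablo, the IAP antagonist, averaged 26.6 ± 1.64 TPM in Drp1_KO mice and 27 ± 2.93 TPM in Drp1_WT mice, and Cycs, which encodes somatic cytochrome c, 24.0 ± 3.75 TPM in Drp1_KO mice and 19.0 ± 4.30 TPM in Drp1_WT mice. With the merged exons as length, Diablo was the higher in 8 of 9 mice, the exception being mouse d, where it held 42% of the group's TPM and Cycs 51%. This exception depends on the length used: with the longest transcript as length Diablo held at least 53.9% and Cycs at most 39.2% in every mouse, and in CPM at least 52% and at most 34.9%. Apaf1, the scaffold of the apoptosome, averaged 2.37 ± 0.518 TPM in Drp1_KO mice and 2.38 ± 0.390 TPM in Drp1_WT mice, and Xiap 1.90 ± 0.853 TPM in Drp1_KO mice and 1.59 ± 0.260 TPM in Drp1_WT mice. Reads of Diablo cannot be told from those of B3gnt4 and Gm49027 where their exons overlap, since the kits keep no strand and Gm49027 lies on the same strand. Exons of Bax, Bak1, Bcl2l2, Bid, Bad and Casp9 also share bases with other genes of the table, and those of Trp73, Cdkn1a and Bcl2 with genes outside it. Cycs and Trp53 have processed pseudogenes in the mouse genome, so their counts depend on how reads with several matches were treated, which is not given in the sources used here.

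Casp8, the initiator caspase of death receptors, made up 93.0% ± 1.2 of the summed TPM of the 4 caspases in Drp1_KO mice and 92.1% ± 1.79 in Drp1_WT mice. It had 90.2, 106, 81.6 and 130.3 CPM in Drp1_KO mice a to d and 59.2, 93.3, 82.8, 69.9 and 115 CPM in Drp1_WT mice 1 to 5. The highest mouse of each label was the one from tubes 27 to 30. Casp2, whose loss is known to spare oocytes in mice, averaged 4.09 ± 0.358 TPM in Drp1_KO mice and 3.88 ± 0.565 TPM in Drp1_WT mice. Casp6, an executioner, stood at 1.51 ± 0.251 TPM in Drp1_KO mice and 1.42 ± 0.375 TPM in Drp1_WT mice, and Casp9, the caspase of the apoptosome, at 1.11 ± 0.272 TPM in Drp1_KO mice and 1.38 ± 0.379 TPM in Drp1_WT mice.

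**Figure D2:**
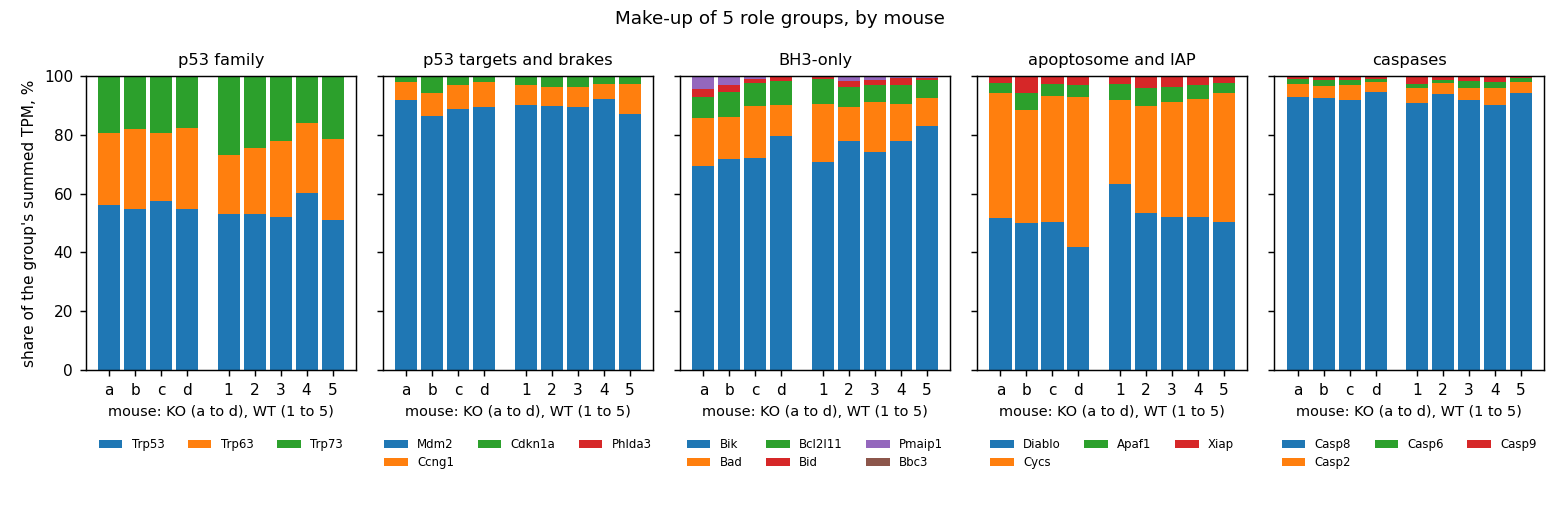
Share of each role group's summed TPM (%, stacked bars) held by its members, for 5 role groups, by mouse (Drp1_KO a to d, then Drp1_WT 1 to 5). Mdm2 and Casp8 take at least 86.3% and 90.0% of their groups in every mouse, Trp53 between 51% and 60.4%, and Cycs exceeds Diablo in mouse d, which it does with the merged exons as length and not with the longest transcript or in CPM.

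Across all members the order of mean levels began with Bcl2l10, Casp8, Mdm2 and Bcl2l1, followed by Bax, Diablo, Trp53, Bik, Cycs and Trp63, the 10 members at 10 TPM or more. Of 27 neighbouring pairs in that order, 2 had mouse ranges that did not overlap: Bcl2l10 above Casp8, by 91.1 times, and Cycs above Trp63, by 1.97 times. Casp8 was above Mdm2 in 8 of 9 mice and Mdm2 above Bcl2l1 in 7 of 9. Bax, Diablo, Trp53, Bik and Cycs had means between 21.2 and 27.8 TPM, and neighbours among them changed place in at least 2 of the 9 mice. At the other end, 7 members averaged under 1 TPM (Bid, Pmaip1, Bcl2l2, Bcl2, Phlda3, Bbc3 and Bak1).

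Comparing the labels asks whether these genes differ between oocytes labelled Drp1_KO and Drp1_WT. No member passed an adjusted p of 0.05. Of the 28 members, 23 had enough counts to be tested, and Phlda3, Bcl2, Bcl2l2, Bak1 and Bbc3 did not. By edgeR's quasi-likelihood test on counts summed per mouse, 0 of 23 passed, with a smallest adjusted p of 0.508, beside 2 of all 12812 genes tested (0.0156%). DESeq2 and limma-voom also called 0 members, where they called 0.336% and 0.0702% of all genes. At an unadjusted p under 0.05 there was 1 higher member, Cycs, and 0 lower ones, beside 4.89% and 4.81% of all genes (9.69% in both directions), a share near the background. That count moved with the setting: over 20 alternatives Cycs was at p under 0.05 in 12, Bcl2l10 in 5 and Trp73 in 4, and 3 alternatives had no member there. The share of all genes there moved as well, from 5.7% to 15.8%. With the tube set (1 to 15, or 27 to 30) as a term in the model, Cycs had p = 0.00782 (adjusted p = 0.277) and Bcl2l10 p = 0.0376 (adjusted p = 0.336) by edgeR. These were the 2 members at p under 0.05 in that model, beside 13.9% of all genes. Log2 fold changes of Drp1_KO over Drp1_WT were positive for 15 and negative for 8 members, with a median of 0.09 against -0.0032 over all genes tested. How many of all genes had a positive sign was not counted. Without KO tube 10 the members' median was 0.023 against -0.013 over all genes, and without mouse b it was -0.030 against -0.017. No tested member had mice of the labels that did not overlap, which 2.56% of all tested genes had. CPM and TPM are relative to each library's total, so a change in total RNA per oocyte would not show.

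Cycs, the member with the smallest p, had 28.5, 27.6, 28.5 and 43.9 CPM in Drp1_KO mice a to d and 16.1, 18.6, 25.6, 23.9 and 32.3 CPM in Drp1_WT mice 1 to 5. Mouse d lay above all others, and mouse 5 lay above mice a, b and c, so the labels overlapped. The means were 32.1 ± 7.87 CPM in Drp1_KO mice and 23.3 ± 6.33 CPM in Drp1_WT mice (log2 fold change 0.46, SE 0.20, p = 0.0419, adjusted p = 0.508 by edgeR). The highest mouse of each label came from tubes 27 to 30, and without both of these mice the log2 fold change was 0.42 (adjusted p = 0.456 by edgeR). Without mouse d alone it was 0.27 (adjusted p = 0.822 by edgeR). Over all alternatives its adjusted p ran from 0.243 to 0.913.

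Bcl2l10 had 3568, 4578, 3156 and 4160.5 CPM in Drp1_KO mice a to d and 3353, 2789, 3300.5, 3600.0 and 2988 CPM in Drp1_WT mice 1 to 5. Mouse b, which contains tube 10, was the highest, and mice a and c lay inside the Drp1_WT range. The means were 3866 ± 629 CPM in Drp1_KO mice and 3206 ± 319 CPM in Drp1_WT mice (log2 fold change 0.27, 95% interval -0.0068 to 0.55, p = 0.0551, adjusted p = 0.521 by edgeR). Without tube 10 the log2 fold change was 0.15 (p = 0.215, adjusted p = 0.680 by edgeR), and over all alternatives its adjusted p ran from 0.278 to 0.937. With library totals in place of TMM factors it was 0.17 (adjusted p = 0.571 by edgeR).

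Trp73 had 17.1, 17.6, 17.1 and 14.1 CPM in Drp1_KO mice and 26.5, 23.3, 20.4, 14.2 and 17.2 CPM in Drp1_WT mice. Mice 1, 2 and 3 lay above every Drp1_KO mouse, and mice 4 and 5 among them (log2 fold change -0.30, SE 0.18, p = 0.107, adjusted p = 0.557 by edgeR). Without WT tubes 11 to 15, and so without mouse 4, it was -0.48 (p = 0.0120, adjusted p = 0.746 by edgeR), and over all alternatives its adjusted p ran from 0.353 to 0.857. Mdm2 had 86.6, 86.0, 80.1 and 87.1 CPM in Drp1_KO mice and 116, 81.0, 82.8, 120.5 and 76.6 CPM in Drp1_WT mice. Mice 1 and 4 stood above all the others and the remaining 3 Drp1_WT mice lay near the Drp1_KO mice (log2 fold change -0.17, SE 0.15, adjusted p = 0.685 by edgeR). Bcl2l1 had 64.6, 66.2, 75 and 44.3 CPM in Drp1_KO mice and 106, 70.5, 66.1, 85.6 and 54.7 CPM in Drp1_WT mice. Its lowest mouse in each label was that from tubes 27 to 30 (log2 fold change -0.29, SE 0.19, adjusted p = 0.6 by edgeR).

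For the other genes of 10 TPM or more the intervals bound the difference between the labels as given. They cover the error of the fit only, and neither a wrong label nor a change in total RNA. Trp53 differed by a log2 fold change of 0.00021 (95% interval -0.26 to 0.26) and Trp63 by 0.06 (-0.19 to 0.31), which as a ratio of Drp1_KO over Drp1_WT spans 0.837 to 1.19 for Trp53 and 0.874 to 1.24 for Trp63. Diablo had 62.8, 64.9, 60.9 and 65.5 CPM in Drp1_KO mice and 63.8, 49, 61.6, 56.1 and 67.4 CPM in Drp1_WT mice (ratio 0.901 to 1.26). Bax had a ratio between 0.761 and 1.13, Bik between 0.683 and 1.12, and Casp8 between 0.917 and 1.60. Of the 23 tested members, 21 had a 95% interval within a 2-fold difference in either direction and 12 within a 1.5-fold difference. The 2 whose intervals reached past 2-fold were Pmaip1, the p63 target (log2 fold change 1.10, SE 0.63, adjusted p = 0.553 by edgeR), and Bid (0.23, SE 0.45, adjusted p = 0.857 by edgeR), both under 1.2 CPM in every mouse. Pmaip1 was highest in mice a and b and lowest in mouse d, all labelled Drp1_KO. KO tube 10 alone held 15 of the 33 counts of mouse b, and mouse d had 2 counts.

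**Figure D3:**
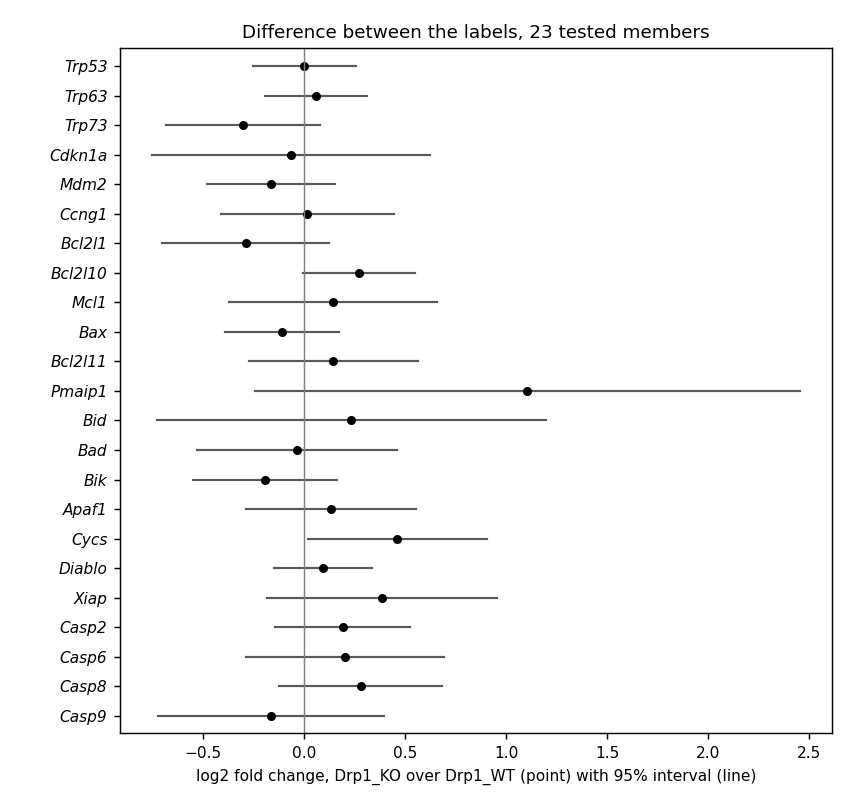
Log2 fold change of Drp1_KO over Drp1_WT (point) with its 95% interval (line) for the 23 tested members in order of role, from edgeR on counts summed per mouse. Every interval but that of Cycs includes 0, and those of Pmaip1 and Bid are the widest.

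Bcl2, the founding survival gene of the family, was too low to be tested. Its counts summed to 47 in 15 of 18 Drp1_KO oocytes and to 18 in 8 of 18 Drp1_WT oocytes. By mouse it stood at 0.349, 0.591, 0.331 and 0.640 CPM in Drp1_KO mice a to d and 0.0554, 0.214, 0.329, 0.105 and 0.0391 CPM in Drp1_WT mice 1 to 5. All Drp1_KO mice were above all Drp1_WT mice, by a margin of 0.331 CPM in mouse c against 0.329 CPM in mouse 3. These values rest on 9 counts in mouse c and 10 counts in mouse 3, so the margin is within counting error. With no filter on low counts, edgeR gave a log2 fold change of 1.60 (SE 0.63, p = 0.0205, adjusted p = 0.566). In that fit 8.59% of all 18433 genes had an unadjusted p under 0.05. Reads from a transcript antisense to part of Bcl2 may count in it, since the libraries keep no strand. How reads over exons of several genes were treated is not given in the sources used here. Bcl2l2 had 0.0873, 0.661, 0.110 and 0.0984 CPM in Drp1_KO mice and 0.166, 0.107, 0.395, 0.210 and 0.0782 CPM in Drp1_WT mice, and tube 10 alone held 8 of the counts of mouse b.

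Oocytes of a mouse were alike for the abundant members. The median coefficient of variation between oocytes of a mouse was 11.9% for Trp63, 12.4% for Bcl2l10, 13.8% for Mdm2 and for Diablo, 15.2% for Trp53, 15.4% for Bax and 18.2% for Casp8, and 11 members were under 25%. Every oocyte had counts of 20 of the 28 members, Trp53, Trp63 and Trp73 included. Over single oocytes, Trp63 had a lowest, median and highest value of 24.2, 32.4 and 45.7 CPM under the Drp1_KO label and 26.0, 33.6 and 43.7 CPM under the Drp1_WT label. Trp53 had 17, 34.7 and 45.1 CPM under Drp1_KO and 25.7, 38.1 and 46.4 CPM under Drp1_WT. Bax had 9.95, 15 and 19.2 CPM under Drp1_KO and 9.26, 17.9 and 23.5 CPM under Drp1_WT. Each of these pairs of ranges overlapped along most of its length. Low genes varied more: the coefficient was 54.5% for Cdkn1a, 104% for Pmaip1 and 110% for Bcl2, where 1 count is worth 0.135 to 0.315 CPM.

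**Figure D4:**
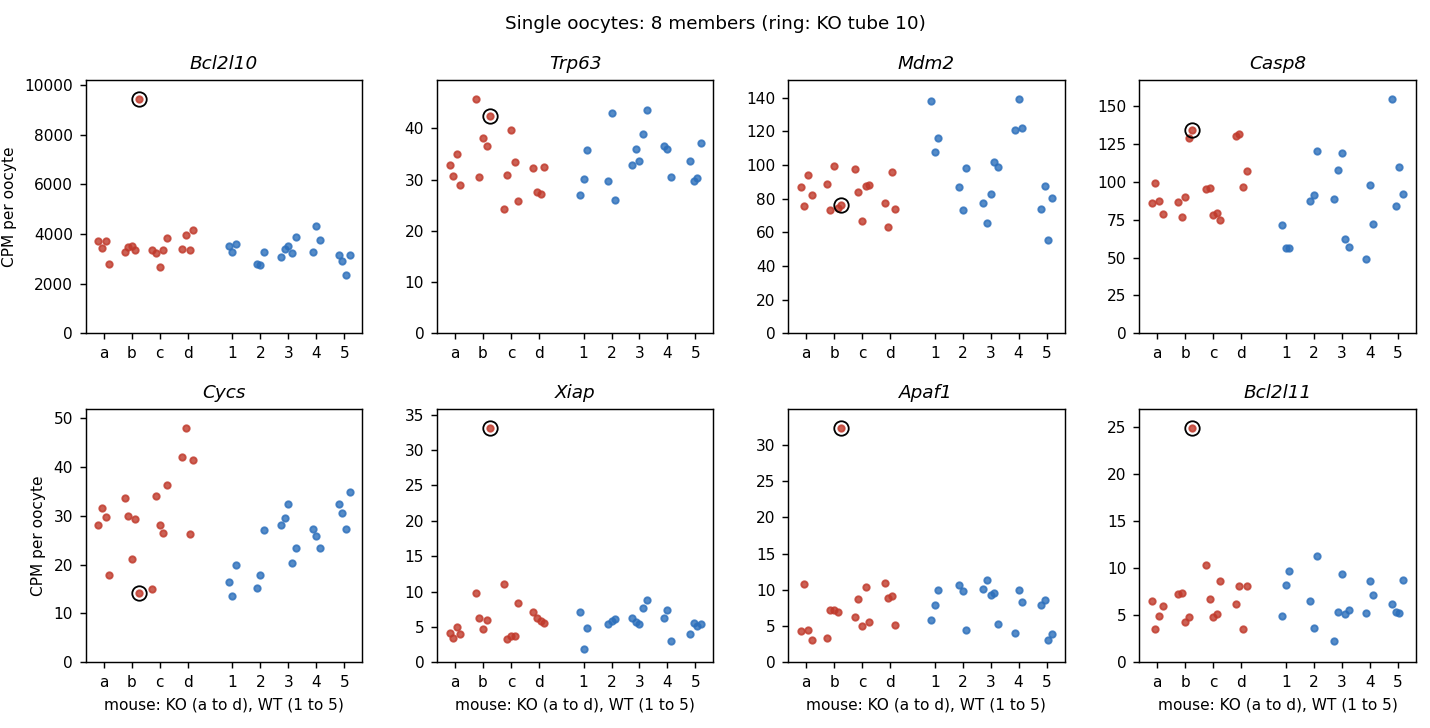
CPM of 8 members in single oocytes (red, Drp1_KO mice a to d; blue, Drp1_WT mice 1 to 5), each point being an oocyte and the ring marking KO tube 10. Tube 10 is the highest of all 36 oocytes for Bcl2l10, Xiap, Apaf1 and Bcl2l11 and lies inside the range of the other oocytes for Trp63, Mdm2, Casp8 and Cycs.

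KO tube 10 had its own profile of member genes. It was above all 35 other oocytes for 8 of the 23 tested members (34.8%, beside 14.4% of all tested genes) and below them all for 4 (17.4%, beside 42.2%). The higher ones were Bcl2l10 (9454 CPM against 2337 to 4327 CPM in the others), Xiap (33.1 against 1.95 to 11 CPM), Apaf1 (32.3 against 3.04 to 11.3 CPM), Bik, Bcl2l11 (24.9 against 2.26 to 11.3 CPM), Cdkn1a (9.60 against 0.169 to 4.17 CPM), Casp9 and Pmaip1 (3.07 against 0 to 1.89 CPM). The lower ones were Diablo (23.7 against 46 to 91.5 CPM), Trp73 (5.93 against 6.07 to 30.9 CPM), Ccng1 and Bad, which had 0 counts. Trp53, Trp63, Mdm2, Bax and Bcl2l1 were inside the range of the others. The set of 16 markers of other cell types, at 561 CPM, was led in this library by Lyz2 with 440 CPM, Cd68 with 67.8 CPM and Adgre1 with 34.5 CPM, macrophage genes that reached at most 0.852, 7.56 and 0.169 CPM in the others, while Ptprc stood at 1.23 CPM. Of the 16 markers, 5 were above all other oocytes and 9 were at 0, Col1a1, Dcn and Krt8 among them. Of 10 oocyte markers 9 were below all other oocytes. Granulosa markers summed to 163 CPM, the highest of all libraries by a small margin (83.9 to 162 CPM in the others). Of these 16 granulosa markers, 3 were above all other oocytes and 4 were at 0. What part RNA of other cells had in the values of this library was not tested. Without tube 10, log2 fold changes between the labels were 0.11 for Xiap against 0.39 with it, 0.82 for Pmaip1 against 1.10, and -0.10 for Apaf1 against 0.13, none of them called.

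**Figure D5:**
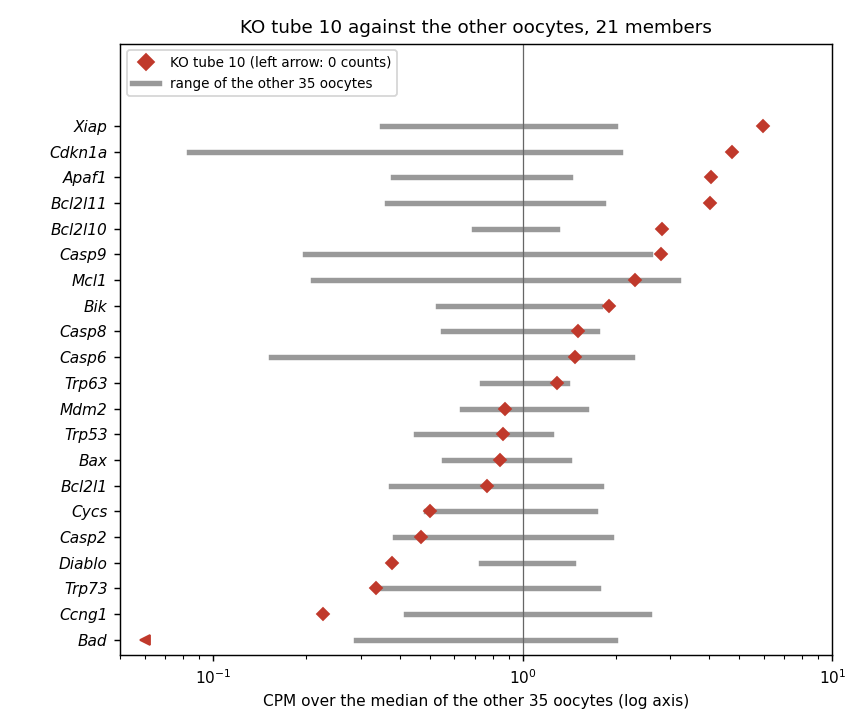
CPM of KO tube 10 (diamonds) over the median of the other 35 oocytes, for 21 members, with the range of those 35 as bars (log axis); the arrow marks 0 counts of Bad. Xiap stands at 5.96 times the median and Cdkn1a at 4.76 times, while Diablo stands at 0.377 times.

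WT tubes 11 to 15, the 5 libraries with little Dnm1l, are 2 oocytes of mouse 3 and all 3 of mouse 4. They had a median of 121 CPM of Mdm2 (98.8 to 139 CPM) against 82.8 CPM (55.6 to 138 CPM) in the other 13 libraries labelled Drp1_WT, and 85.6 CPM of Bcl2l1 (72.4 to 117 CPM) against 58.1 CPM (39.8 to 119 CPM). Casp8 ran the other way, with a median of 62.5 CPM (49 to 97.9 CPM) against 91.2 CPM (56.4 to 155 CPM). The ranges overlapped for all 3 genes. Oocytes of mouse 1, with 276 to 311 CPM of Dnm1l, held 108 to 138 CPM of Mdm2 and 94.8 to 119 CPM of Bcl2l1. Their Casp8 was at 56.4 to 71.4 CPM, so these levels were not particular to tubes 11 to 15. The other caspases of the set did not run with Casp8 and had higher medians in tubes 11 to 15 than in the other 13 libraries. These were 12.7 against 8.31 CPM for Casp2, 4.43 against 2.40 CPM for Casp6 and 3.99 against 1.89 CPM for Casp9, with ranges that overlapped. How many of all genes differ in this way was not counted. Leaving these 5 libraries out, which leaves 4 Drp1_WT mice, the log2 fold change between the labels was -0.06 for Mdm2 and 0.11 for Casp8, against -0.17 and 0.28 with them, and no member was called.

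Around the members, genes that control p53 and p63 were tested in full. All 17 had enough counts, and 0 were called, with 2 higher and 1 lower at an unadjusted p under 0.05, beside 4.89% higher and 4.81% lower of all genes. Without KO tube 10 it was 0 higher and 1 lower, Hipk2, beside 3.79% and 4.76% of all genes. Chek1, the checkpoint kinase CHK1, averaged 1151 ± 165 CPM in Drp1_KO mice and 965 ± 46.2 CPM in Drp1_WT mice, and 607 TPM over all mice. Rchy1, the p53 ubiquitin ligase Pirh2, averaged 265 ± 63.6 CPM in Drp1_KO mice and 212 ± 13 CPM in Drp1_WT mice, and Hipk2, a kinase that phosphorylates p53, 20.9 ± 4.09 CPM in Drp1_KO mice and 26.3 ± 1.72 CPM in Drp1_WT mice. The adjusted p of each of these 3 was 0.508 by edgeR. Mdm4, the partner of Mdm2, averaged 4056 ± 584 CPM in Drp1_KO mice and 3431 ± 256 CPM in Drp1_WT mice, and at 672 TPM stood far above Mdm2 per length. Tube 10 was above all other oocytes for 3 of these genes, with 2082 CPM of Chek1 against 836 to 1344 CPM, 933 CPM of Rchy1 against 159 to 311 CPM and 6017 CPM of Mdm4 against 2896 to 4611 CPM. Without it the log2 fold change was 0.18 for Chek1 against 0.25 with it, 0.12 for Rchy1 against 0.32, and 0.18 for Mdm4 against 0.24. Chek2, the kinase upstream of p63 in oocytes, had 3.40 ± 0.310 CPM in Drp1_KO mice and 3.52 ± 0.683 CPM in Drp1_WT mice (3.11 TPM), and Csnk1a1, a casein kinase 1, 172 ± 12.9 CPM in Drp1_KO mice and 170.2 ± 15.4 CPM in Drp1_WT mice (44.3 TPM).

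Among 24 other p53 targets, 22 were tested, and 0 were called, with 0 higher and 2 lower at an unadjusted p under 0.05, beside the 4.89% and 4.81% of all genes. The lower pair was Gdf15, a stress cytokine, with 0.946 ± 0.284 CPM in Drp1_KO mice and 1.57 ± 0.352 CPM in Drp1_WT mice, and Fdxr, ferredoxin reductase, with 1.77 ± 0.505 CPM in Drp1_KO mice and 2.60 ± 0.406 CPM in Drp1_WT mice (adjusted p = 0.508 and 0.513 by edgeR). Polk, a DNA polymerase for lesion bypass, had 15.3 ± 4.65 CPM in Drp1_KO mice and 11.4 ± 2.05 CPM in Drp1_WT mice, and Rps27l 354 ± 132 CPM in Drp1_KO mice and 252 ± 70.4 CPM in Drp1_WT mice (966 TPM over all mice). Tube 10 held 66.6 CPM of Polk and 1796 CPM of Rps27l, above the other oocytes, and without it the log2 fold change was 0.17 for Polk against 0.43 with it and 0.18 for Rps27l against 0.49. Without tube 10 the list had 0 higher and 3 lower (Btg2, Ddit4 and Gdf15), beside 3.79% and 4.76% of all genes. Tube 10 held 23.5 CPM of Ddit4 against 0.943 to 8.09 CPM in the others. The log2 fold change of Ddit4 was -0.71 without tube 10 against -0.26 with it. With tube 10 kept, the median log2 fold change of this list was -0.05, and that of the control genes was 0.02.

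Of 12 other BCL-2 family genes, 6 were tested, with 0 called and 0 at an unadjusted p under 0.05 (median log2 fold change 0.01). Bnip3l, a mitophagy receptor, averaged 213 ± 12.1 CPM in Drp1_KO mice and 197 ± 20.6 CPM in Drp1_WT mice, and Bok, a BAX relative, 0.271 ± 0.212 CPM in Drp1_KO mice and 0.513 ± 0.2 CPM in Drp1_WT mice. Bnip3, the paralogue of Bnip3l, had 37.3 ± 7.37 CPM in Drp1_KO mice and 35.6 ± 3.62 CPM in Drp1_WT mice and Bcl2l12 5.46 ± 1.17 CPM in Drp1_KO mice and 6.08 ± 0.833 CPM in Drp1_WT mice. Of 25 execution, IAP and death receptor genes, 18 were tested and 0 called, with 2 higher and 0 lower at an unadjusted p under 0.05, beside the same 4.89% and 4.81% of all genes (median -0.02). Mlkl, the executor of necroptosis, had 3.88 ± 1.12 CPM in Drp1_KO mice and 2.23 ± 0.516 CPM in Drp1_WT mice (log2 fold change 0.80, SE 0.25, p = 0.00763, adjusted p = 0.497 by edgeR), while Ripk3, the kinase that activates it, named here after its values were seen, had 0 counts under both labels. Casp1, the inflammasome caspase, had 1.74 ± 0.935 CPM in Drp1_KO mice and 0.891 ± 0.307 CPM in Drp1_WT mice, with 12.1 CPM in tube 10 (log2 fold change 0.96, and 0.47 without tube 10). Cflar, the inhibitor of caspase-8, had 13.9 ± 1.39 CPM in Drp1_KO mice and 16.2 ± 0.608 CPM in Drp1_WT mice. Without tube 10 this list had 1 higher, Mlkl, and 1 lower, Cflar, beside 3.79% and 4.76% of all genes. The survivin gene Birc5, a chromosomal passenger protein of meiosis, averaged 1561 ± 201 CPM in Drp1_KO mice and 1345 ± 206 CPM in Drp1_WT mice, and 1135 TPM over all mice.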

How the data were processed

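Each GV oocyte was lysed whole, its cDNA came from a SMARTer Ultra Low Input RNA kit, and Nextera XT libraries were sequenced single-end, per the labels' protocols. The authors deposited raw counts of 21968 Ensembl genes in 36 oocytes. Subread 1.5.2, featureCounts, STAR and Picard and the build GRCm38 are named, per the submitters' processing notes, without the role of each. Genes were named by GENCODE M21 on GRCm38 (21876 IDs matched). Counts were summed per mouse and tested with edgeR 4.0.16 (R 4.3.3): TMM factors, its filter on low counts, a robust quasi-likelihood fit and Benjamini-Hochberg adjustment over 12812 genes at 0.05. CPM per mouse uses TMM factors, and CPM per oocyte its own total. TPM is counts over the merged exon length, scaled to a sum of 1e+06 per mouse without TMM factors. Means are over mice, and a limit at 0 counts is 3 counts over the group's total. DESeq2 1.42.0, limma 3.58.1 (voom, with mouse as a random effect, and trend), other scalings and left-out libraries or mice were alternatives. Scripts were tested on simulated counts.

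The members, gene lists and libraries set apart were chosen with earlier results of these data known. Values by mouse were given for members of 10 TPM or more, those at an unadjusted p under 0.05, and the p53 family, Cdkn1a, Bbc3, Pmaip1, Bax and Bak1. In each other list up to 4 genes of smallest p were named, and Chek2 and Csnk1a1 always; 1 further gene of this rule is not reported here. Bcl2, Bcl2l2, Btg2, Ddit4, Usp7, Trp53bp1 and genes described in tube 10 were named after their values were seen. Nothing says whether mice were collected together, and no molecular identifiers are named, so copies from PCR may count as separate reads.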

Additional observations from a re-analysis of the deposited data

Results flagged for a closer look

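Members in which the highest or lowest mouse of a label lay far from the rest of that label were looked for in 53 groups of 4 or 5 mice, and 7 were found. The cutoffs used give about 1 in 20 such groups for normally distributed values. A group with counts in 1 mouse alone passes them whatever the count, and the groups share the same mice. The 7 can therefore not be set against that rate. Cycs stood at 43.9 CPM in mouse d (Drp1_KO), against 27.6 to 28.5 CPM in mice a to c. Trp73 stood at 14.1 CPM in mouse d, against 17.1 to 17.6 CPM in mice a to c. Mdm2 stood at 80.1 CPM in mouse c (Drp1_KO), against 86.0 to 87.1 CPM in the other 3. Bcl2l2 stood at 0.661 CPM in mouse b (Drp1_KO), which contains tube 10, against 0.0873 to 0.110 CPM. Bbc3 stood at 0.0873 CPM in mouse a (Drp1_KO) and at 0 in the other 3. Cdkn1a stood at 1.72 CPM in mouse 5 (Drp1_WT), against 2.40 to 2.49 CPM in mice 1 to 4. Bak1 stood at 0.0524 CPM in mouse 4 (Drp1_WT) and at 0 in the other 4. Bbc3 and Bak1 rest on 2 counts and 1 count.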

How the results depend on the processing

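Under 20 alternatives, 0 members and 0 genes of the 4 pathway lists passed an adjusted p of 0.05. Of these, 9 leave out 1 mouse each, 1 leaves out mice d and 5, and 2 leave out WT tubes 11 to 15 and with them mouse 4, so that 4 Drp1_WT mice remain. Over all genes edgeR called 2, DESeq2 43, limma-voom 9 and edgeR without mice d and 5 called 4; leaving out each mouse in turn gave 1 to 3. Of the 23 tested members, 14 kept their sign under every alternative that tested them (Pmaip1 was filtered out of 4) and 9 reversed in at least 1, in 41 of 456 values. With library totals alone the log2 fold change was -0.086 for Trp53, -0.031 for Trp63 and -0.070 for Ccng1. It was -0.011 for Apaf1 under limma-voom, and -0.016 for Trp53 and -0.020 for Ccng1 under limma-trend. Without KO tube 10 it was -0.015 for Trp53, -0.053 for Bcl2l11, 0.014 for Bad and -0.095 for Apaf1. Without the 5 WT libraries of tubes 11 to 15 it was -0.020 for Trp53 and -0.0011 for Ccng1. Without those 5, KO tube 10 and WT tube 29 together it was -0.042 for Trp53, -0.096 for Bcl2l11, 0.074 for Bad and -0.25 for Apaf1. Without mice d and 5 it was -0.00083 for Trp53, 0.00074 for Cdkn1a and -0.0041 for Apaf1. Leaving out each mouse in turn, it ranged over -0.059 to 0.055 for Trp53, -0.030 to 0.12 for Trp63, -0.54 to 0.096 for Cdkn1a, -0.049 to 0.11 for Ccng1, -0.029 to 0.27 for Mcl1, -0.030 to 0.27 for Bcl2l11, -0.045 to 0.48 for Bid, -0.14 to 0.079 for Bad and -0.014 to 0.26 for Apaf1. The causes of these reversals were not tested.

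Shares of a role group's level kept the same leading gene over the mean of mice. With the longest transcript as length they were 91.8% for Mdm2, 98.99% for Bcl2l10, 69.4% for Bik, 63% for Diablo and 88.8% for Casp8. In CPM, which favours long genes, they were 40.9% for Trp53, 92.4% for Mdm2, 97.9% for Bcl2l10, 53.4% for Bik, 60.1% for Diablo and 84.9% for Casp8. In CPM Trp53 was the highest of its family in 5 of 9 mice.

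No paired analysis was possible because Drp1_KO mice carry letters and Drp1_WT mice numbers, which name no pairs. With 4 against 5 mice, the 95% interval of 11 of the 23 tested members reached past a 1.5-fold difference. In simulated counts of this comparison, over 12702 genes, 22.4% of 1.5-fold and 97% of 2-fold changes passed the adjusted p of 0.05. Only well-counted genes were changed there, and all genes were given the same spread between mice. The fit called 155 genes there and 2 in these data, so its cutoff on p was looser there. These shares therefore do not carry over to the members, least of all to those with low counts. Members under 1 TPM are limited by depth.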

Other observations

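Birc3, which encodes the inhibitor of apoptosis cIAP2 and was named after its values were seen, averaged 506 ± 52.5 CPM in Drp1_KO mice and 513 ± 72.8 CPM in Drp1_WT mice, and 277 TPM over all mice, where Xiap averaged 1.73 TPM. Usp7, likewise named after its values were seen, the enzyme that removes ubiquitin from MDM2 and p53, averaged 380.1 ± 32.2 CPM in Drp1_KO mice and 381 ± 15.6 CPM in Drp1_WT mice, and 132 TPM over all mice. Trp53bp1, also named after its values were seen, which binds p53 and marks DNA breaks, averaged 66.2 ± 8.15 CPM in Drp1_KO mice and 93.6 ± 44.3 CPM in Drp1_WT mice (log2 fold change -0.50, SE 0.28, adjusted p = 0.550 by edgeR), with a spread over Drp1_WT mice larger than the difference.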
